A study of Bubalus bubalis with 6 samples.

Results

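The plasminogen activators, their receptor and their inhibitors were followed in muscle stem cells (MuSCs) of the water buffalo (Bubalus bubalis) during proliferation and differentiation. The set was defined by gene symbol as PLAU, PLAT, PLAUR, SERPINE2, SERPINF1, ANXA2, S100A10, TFPI and TFPI2. Of these 9 symbols, 8 were listed among the 24616 genes of the deposited table and all 8 had enough counts to be tested, among 15576 tested genes. TFPI was not found by its symbol and is not analysed here. MuSCs were primary cells released from fetal longissimus muscle with collagenase and trypsin. The 3 GM samples came from proliferating cells in growth medium, DMEM with fetal bovine serum. The 3 DM samples came from cells moved near confluence to differentiation medium, DMEM with a low share of horse serum. Polyadenylated RNA was sequenced from each sample, and nothing in the labels tells whether the samples were separate cultures or animals, so p-values here measure only the spread between these samples, which may be technical.

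Plasmin is a broad serine protease that dissolves fibrin, cleaves matrix proteins and releases or activates growth factors. It is made from plasminogen by urokinase (PLAU), which acts while bound to its receptor at the cell surface (PLAUR), and by tissue-type plasminogen activator (PLAT). Proteins of the SERPIN family trap the activators in complexes that are then taken up by the cell. In muscle, urokinase and plasmin are known for their part in myoblast migration and fusion and in regeneration after injury.

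Between 35615864 and 40305237 reads were counted on genes in each sample. DM samples were tested against GM samples by the quasi-likelihood test of edgeR, and a gene was called when its absolute log2 fold change (DM over GM) was above 1 with a Benjamini-Hochberg adjusted p-value under 0.05 over all tested genes. Over all tested genes the median log2 fold change was 0.03, and scaling by library size alone moved this median by -0.097. The muscle markers desmin (DES, 2274 ± 103 CPM in GM samples and 2051 ± 323 CPM in DM samples) and embryonic myosin (MYH3, 346 ± 121 and 2064 ± 566 CPM) were present, where CPM is the count scaled to a fixed total after TMM normalisation, as mean ± SD, n = 3 in each group. DM replicate 3 lay away from the other DM samples in several of the genes below.

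Urokinase, its receptor and a SERPIN inhibitor were lower in DM samples. PLAU, PLAUR and SERPINE2 fell between 2.34-fold and 4.02-fold, whereas SERPINF1 rose 8.80-fold, and PLAT, ANXA2, S100A10 and TFPI2 did not reach the fold threshold. Thus 4 of the 8 tested genes were called, 1 higher and 3 lower, against a background of 25.3% of all tested genes called, 15.0% higher and 10.3% lower. Among the 2419 genes with a mean level at least that of the least abundant of the 8, 19.0% were called. The median log2 fold change of the 8 genes was -0.45 and the median absolute log2 fold change was 1.04, beside 0.57 for all tested genes. In bulk RNA, fewer cells of a type and less RNA per cell cannot be told apart, and this holds for each difference below.

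**Figure D1:**
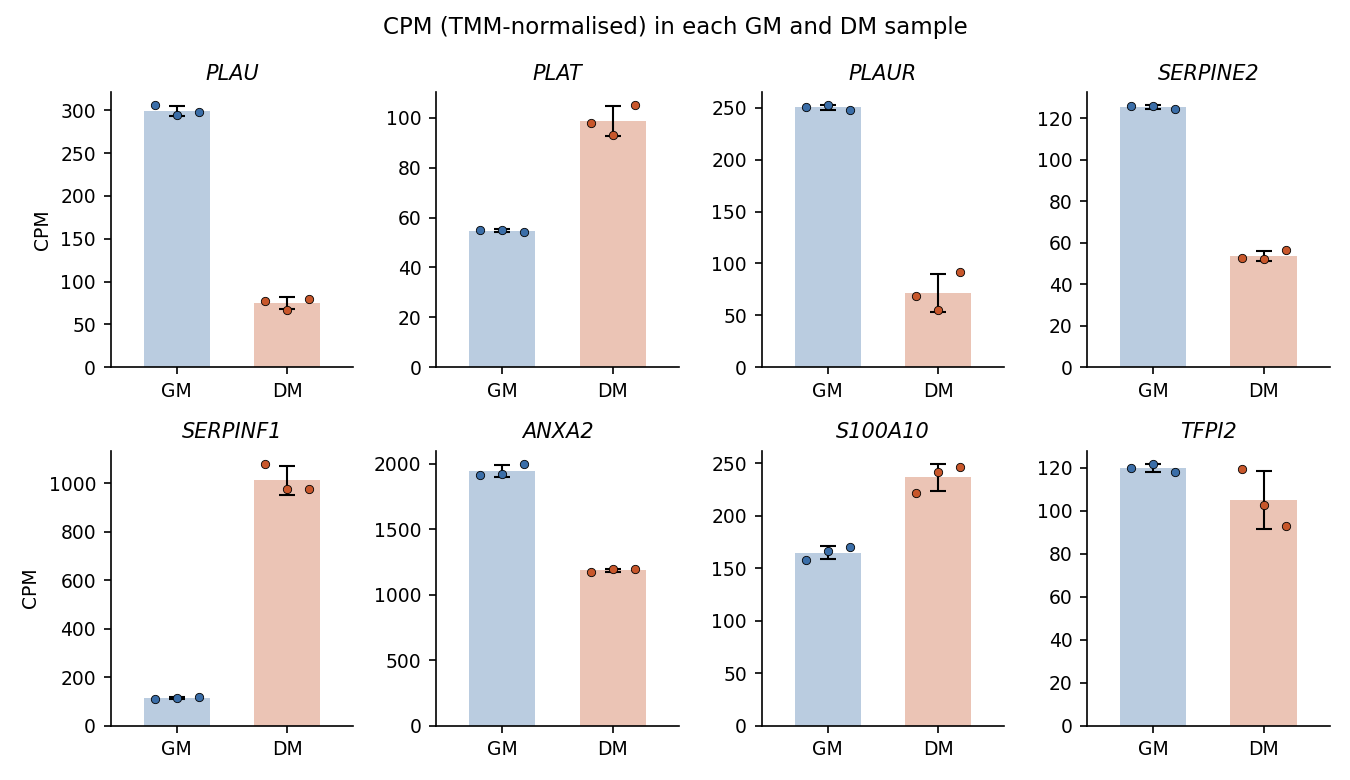
CPM (vertical axes, TMM-normalised, each starting at 0) of the 8 tested genes in GM and DM samples, with points for single samples, bars for the mean and error bars for the SD (n = 3 per group). PLAU, PLAUR, SERPINE2 and ANXA2 are lower in every DM sample, SERPINF1, PLAT and S100A10 are higher in every DM sample, and the TFPI2 points of the groups overlap.

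PLAU (ENSBTAG00000005947, chromosome 28, bases 29964983 to 29971029, plus strand) encodes urokinase, the activator that works at the cell surface. Its counts were 12687, 12230 and 11300 in the GM samples and 2618, 2431 and 2938 in the DM samples. Every DM sample was far below every GM sample. On the CPM scale the mean level went from 299 ± 6.07 to 74.4 ± 7.01, a log2 fold change of -2.01 (SE 0.076, 95% interval -2.18 to -1.84, edgeR adjusted p = 1.05e-08). PLAU was therefore 4.02-fold lower in DM samples, with an interval of 3.57 to 4.52, and it ranked 541 by size of fall among tested genes.

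PLAUR (ENSBTAG00000013125, chromosome 18, bases 52202332 to 52215619, minus strand) encodes the lipid-anchored receptor that holds urokinase on the cell. GM samples had 10394, 10504 and 9408 counts of PLAUR and DM samples had 2304, 2034 and 3393. The groups did not overlap, but the DM samples spread more than the GM samples and DM replicate 3 was the highest of them. PLAUR fell from a mean CPM of 250.4 ± 2.18 to 71.8 ± 18.3, with a log2 fold change of -1.80 (SE 0.14, 95% interval -2.12 to -1.48, edgeR adjusted p = 1.53e-06). Without DM replicate 3 the log2 fold change of PLAUR was -2.01. In RPKM, which divides by gene length and library size so that levels of different genes can be compared, the ratio of PLAU to PLAUR was 0.666 ± 0.0159 in GM samples and 0.594 ± 0.0979 in DM samples. These values overlapped (two-sided exact permutation test, p = 0.2).

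PLAT (ENSBTAG00000001244, chromosome 27, bases 36738833 to 36762837, minus strand) encodes tissue-type plasminogen activator, the activator best known for dissolving clots in blood vessels. For PLAT the GM counts were 2275, 2296 and 2056 and the DM counts 3313, 3407 and 3888. All 3 DM samples were above all 3 GM samples, the opposite order to PLAU. Its CPM was 54.8 ± 0.488 in GM samples and 98.8 ± 6.02 in DM samples. The log2 fold change of 0.85 (SE 0.066, 95% interval 0.70 to 0.998, edgeR adjusted p = 1.20e-06) stayed under the fold threshold, so PLAT was not called. Within each sample, the RPKM of PLAU was 5.59 to 5.85 times that of PLAT in GM samples and 0.749 to 0.829 times in DM samples. Urokinase was thus the more abundant activator transcript in each GM sample and tissue-type activator in each DM sample, and this ratio had an exact permutation p of 0.1, the smallest that 3 samples against 3 can give.

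SERPINE2 (ENSBTAG00000008717, chromosome 2, bases 112870323 to 112900274, minus strand) encodes protease nexin-1, a cell-associated inhibitor of thrombin, urokinase and plasmin. GM samples held 5232, 5235 and 4723 counts and DM samples 1772, 1905 and 2087. These groups were well separated and each was tight. SERPINE2 fell from 126 ± 0.839 CPM to 53.6 ± 2.40 CPM, its log2 fold change being -1.23 (SE 0.062, 95% interval -1.36 to -1.09, edgeR adjusted p = 5.70e-08). This was a smaller fall than that of PLAU, and the ratio of SERPINE2 to PLAU in RPKM was 0.703 ± 0.0133 in GM samples and 1.21 ± 0.0915 in DM samples (exact permutation p = 0.1).

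SERPINF1 (ENSBTAG00000009705, chromosome 19, bases 23422880 to 23430667, plus strand) encodes pigment epithelium-derived factor, a secreted SERPIN that does not inhibit proteases and is known for restraining blood vessel growth. GM samples had 4582, 4812 and 4512 counts of it and DM samples 36538, 35791 and 36143. No other gene of the set was called higher, and the DM counts lay close together. SERPINF1 rose from 115 ± 4.29 CPM to 1012 ± 60.3 CPM (log2 fold change 3.14, SE 0.070, 95% interval 2.98 to 3.29, edgeR adjusted p = 6.51e-10). The 8 genes together took 0.315 to 0.324% of all gene counts in each GM sample and 0.274 to 0.276% in each DM sample, and SERPINF1 alone 0.0115 to 0.0123% in each GM sample and 0.0947 to 0.103% in each DM sample. Among all listed genes ordered by mean RPKM it went from rank 1141 to rank 116, and it ranked 561 by size of rise among tested genes. The RPKM of SERPINF1 was 0.929 ± 0.0404 times that of SERPINE2 in GM samples and 19.2 ± 1.68 times in DM samples (exact permutation p = 0.1).

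**Figure D2:**
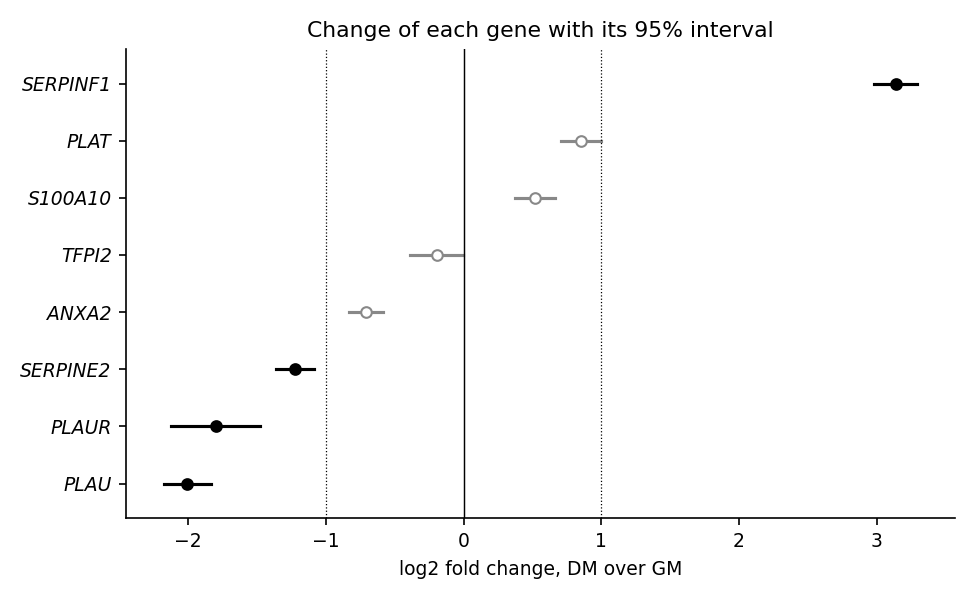
Log2 fold change (horizontal axis, DM over GM) of the 8 tested genes, with lines for the 95% interval, filled points for called genes, open points for genes not called and dotted lines at -1 and 1. SERPINF1 is the single called gene to the right, at 3.14, and PLAU lies farthest to the left, at -2.01.

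ANXA2 and S100A10 encode the partners of a cell-surface complex that binds plasminogen and PLAT. ANXA2 (ENSBTAG00000009615, chromosome 10, bases 49860062 to 49904536, plus strand) had 79291, 80079 and 75921 counts in GM samples and 39701, 43749 and 44210 in DM samples. S100A10 (ENSBTAG00000015147, chromosome 3, bases 18799612 to 18810545, plus strand) had 6546, 6941 and 6468 counts in GM samples and 7483, 8862 and 9111 in DM samples. Neither gene overlapped between the groups, and their directions were opposite, ANXA2 being lower and S100A10 higher in every DM sample. ANXA2 was at 1946 ± 49.0 CPM in GM samples and 1189 ± 11.4 CPM in DM samples. Its log2 fold change was -0.71 (SE 0.056, 95% interval -0.84 to -0.59, edgeR adjusted p = 1.30e-06), which was under the fold threshold. S100A10, at 165 ± 6.55 and 237 ± 13.2 CPM, had a log2 fold change of 0.52 (SE 0.065, 95% interval 0.38 to 0.66, edgeR adjusted p = 4.25e-05), also not called. The RPKM of ANXA2 was 5.16 ± 0.128 times that of S100A10 in GM samples and 2.20 ± 0.105 times in DM samples (exact permutation p = 0.1).

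TFPI2 (ENSBTAG00000015844, chromosome 4, bases 11035479 to 11039782, minus strand) encodes a matrix-bound inhibitor of plasmin and related proteases built from Kunitz domains, a fold unrelated to the SERPINs. Its GM counts of 4973, 5070 and 4479 became 119.9, 122 and 118 CPM. DM counts of 4038, 3755 and 3430 became 119.6, 103 and 92.7 CPM. On the CPM scale DM replicate 1 was inside the GM range and the other DM samples were below it, so the groups overlapped. This depends on the scaling. In the deposited RPKM, which has no TMM step, GM samples were at 92.6 to 95.4 and DM samples at 68.1 to 86.0, without overlap. With a log2 fold change of -0.19 (SE 0.087, 95% interval -0.39 to -0.00084, edgeR adjusted p = 0.0742), TFPI2 was the only one of the 8 genes whose adjusted p was not under 0.05. With library size alone its edgeR adjusted p was 0.00976. Over the other processing settings its adjusted p ran from 0.00654, without DM replicate 1, to 1, in the test against a fold change of 2, and its log2 fold change from -0.29 to -0.10.

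Apart from TFPI2, the GM and DM CPM values of 7 of the 8 genes did not overlap, and these 7 also had an adjusted p under 0.05 by edgeR. Both counts have to be read against their backgrounds, since 68.8% of all tested genes did not overlap and 63.0% had such an adjusted p. In the deposited table of mRNA transcripts, each of the 8 genes had 1 transcript, with the same counts as the gene. The same 4 were called there, against 25.6% of all tested transcripts. None of the 8 gene intervals overlapped another listed gene.

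Per length, ANXA2 was the most abundant transcript of the set in both media. In GM samples it was followed in mean RPKM by S100A10 (283 ± 10.8), PLAUR (197 ± 1.61), PLAU (131 ± 2.97), TFPI2 (94.1 ± 1.38), SERPINE2 (92.4 ± 0.704), SERPINF1 (85.9 ± 3.08) and PLAT (22.9 ± 0.196), with ANXA2 itself at 1458 ± 36.2. Only TFPI2 and SERPINE2 overlapped among neighbours in this order. In DM samples the mean RPKM was 832 ± 22.4 for ANXA2, 706 ± 30.4 for SERPINF1, 379 ± 27.0 for S100A10, 76.8 ± 8.93 for TFPI2, 52.9 ± 13.4 for PLAUR, 38.6 ± 2.26 for PLAT, 36.9 ± 1.80 for SERPINE2 and 30.5 ± 2.55 for PLAU. Here the neighbours PLAT and SERPINE2 overlapped and the others did not. SERPINF1 moved up from place 7 to place 2, while PLAU moved down from place 4 to place 8. Of the 5 within-sample ratios examined, all but PLAU to PLAUR separated the groups, each with a Benjamini-Hochberg adjusted p of 0.125 over the 5 ratios, so none can pass 0.05 at this number of samples.

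**Figure D3:**
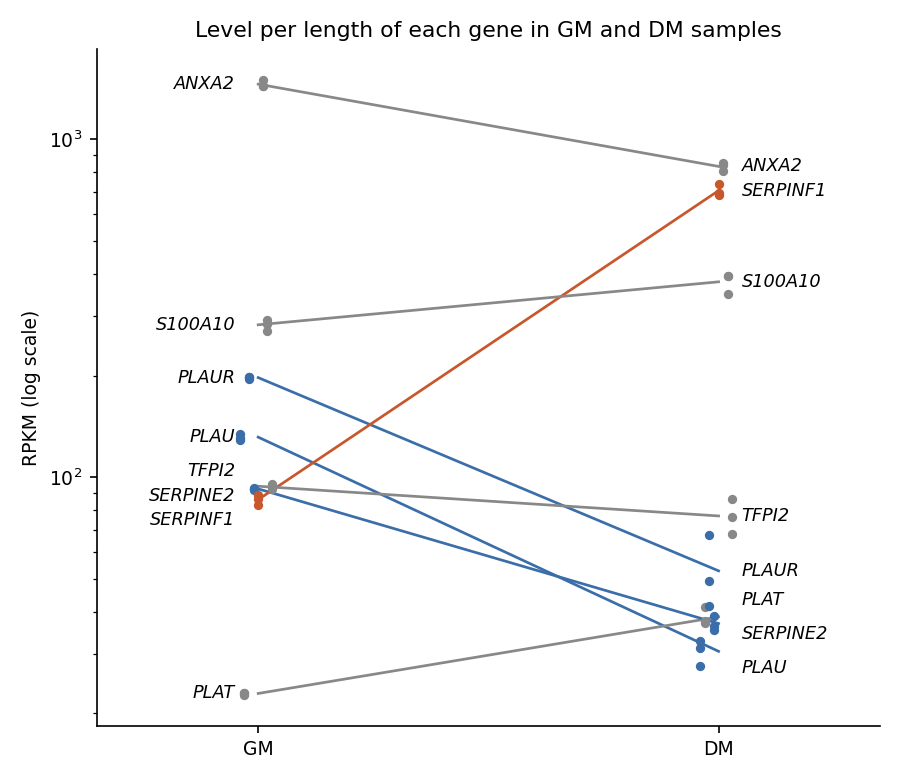
Deposited RPKM (vertical axis, log scale) of the 8 tested genes in GM and DM samples, with points for single samples, shifted sideways by gene, and lines joining the group means. Blue marks genes called lower in DM samples, orange the gene called higher and grey genes not called, and the SERPINF1 line crosses those of S100A10, PLAUR, PLAU, TFPI2 and SERPINE2 on its way from 85.9 to 706 RPKM.

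**Figure D4:**
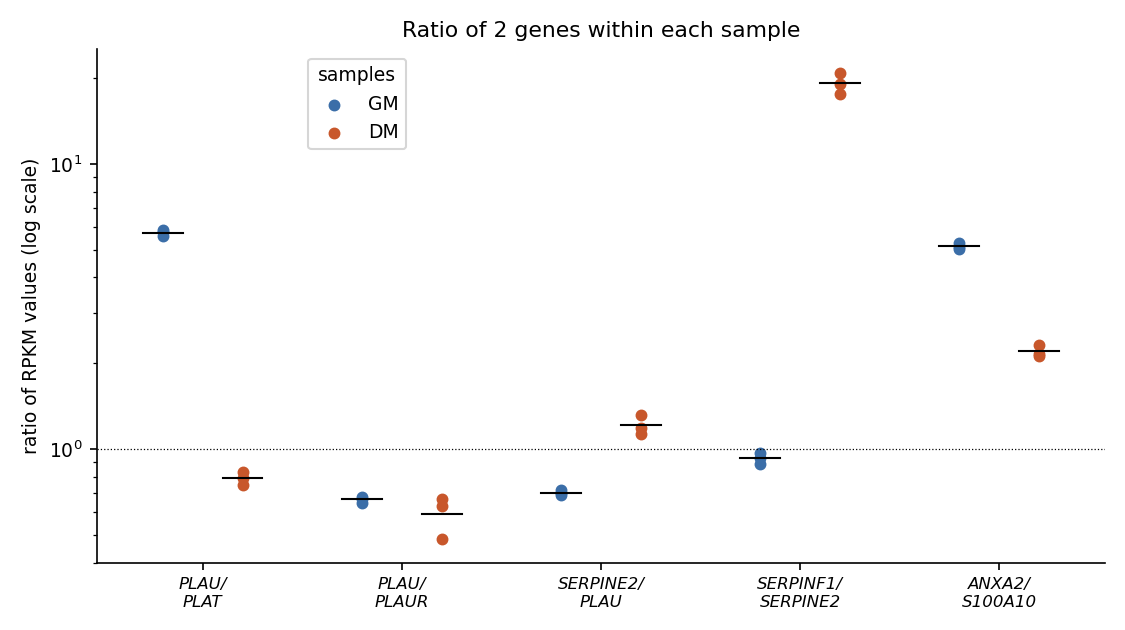
Ratio of the RPKM values of a pair of genes within each sample (vertical axis, log scale), with blue points for GM samples, orange points for DM samples, short lines for the mean of 3 samples and a dotted line at a ratio of 1. Only the PLAU to PLAUR ratio overlaps between the groups, and PLAU to PLAT passes from above 1 in GM samples to below 1 in DM samples.

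Other genes of the plasminogen system were taken from a list of 16 symbols, of which 14 were listed and 11 tested. Of these 11, 4 rose, 2 fell and 5 were not called, with a median log2 fold change of 0.68. The called share was 54.5%, beside 25.3% of all tested genes. The substrate itself, plasminogen (PLG), a product of the liver, had 1, 1 and 2 counts in GM samples and 0 in each DM sample, too few to test. Among inhibitors, the neuroserpin gene SERPINI1, whose product inhibits PLAT, fell from 7.25 ± 0.639 to 1.91 ± 0.411 CPM (log2 fold change -1.92, SE 0.19). The antiplasmin gene SERPINF2 had 0 counts in each GM sample and 3, 2 and 6 in the DM samples, too few to give the size of a change. It was called by edgeR (adjusted p = 0.0180) and lost with DESeq2 (adjusted p = 0.0546). With stricter filters on low counts, or with any DM sample left out, it was not tested.

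Receptors of the LDL receptor family take up complexes of activators and inhibitors, and they did not move as a block. VLDLR rose from 40.9 ± 4.76 CPM to 183 ± 12.1 CPM (log2 fold change 2.16, SE 0.092, edgeR adjusted p = 1.98e-08). LRP1, the main receptor of this kind, was already abundant at 3035 ± 203 CPM and rose to 6234 ± 586 CPM (log2 fold change 1.04, SE 0.082). This call was just past the threshold, and LRP1 was at 0.94 with library size alone, 0.999 without GM replicate 3 and 0.98 without DM replicate 1, where it was not called. LRP8 fell from 62.9 ± 1.25 to 27.5 ± 3.15 CPM (log2 fold change -1.20, SE 0.087). The collagen receptor MRC2, which associates with PLAUR on the cell surface, rose from 281 ± 9.38 to 813 ± 55.3 CPM (log2 fold change 1.53, SE 0.068), the opposite direction to PLAUR. The plasminogen receptor PLGRKT was not called, at 8.36 ± 0.550 and 13.7 ± 0.482 CPM.

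**Figure D5:**
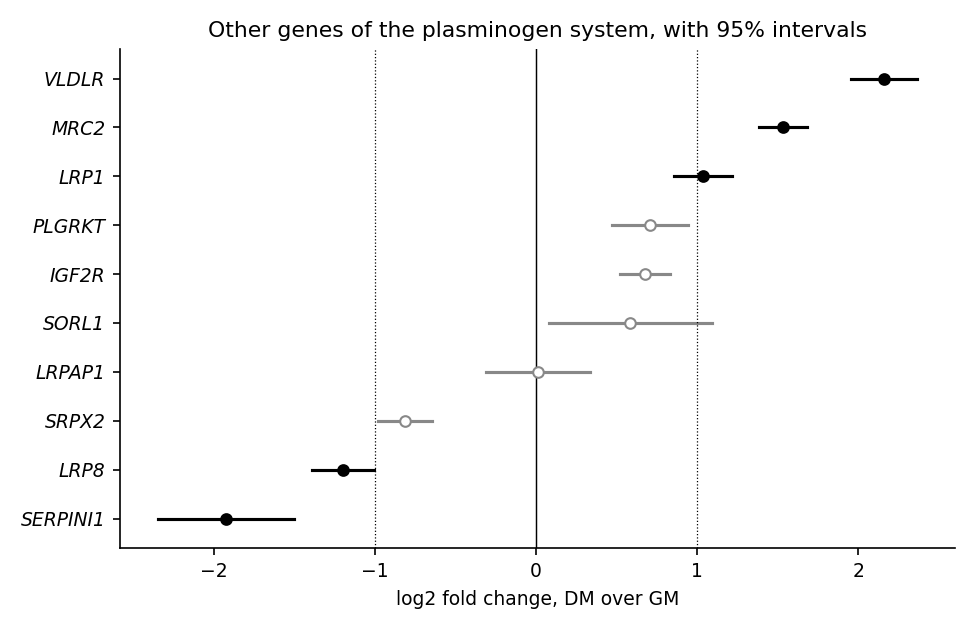
Log2 fold change (horizontal axis, DM over GM) of other genes of the plasminogen system that were tested and had counts in both groups, with lines for the 95% interval, filled points for called genes and open points for genes not called. VLDLR, MRC2 and LRP1 lie beyond the dotted line at 1, and LRP8 and SERPINI1 beyond the dotted line at -1.

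Proteins that plasmin cleaves or that bind it were taken from a list of 18 symbols, of which 13 were tested. Of these, 3 rose and 4 fell, with a median log2 fold change of 0.08. This made 53.8% called, beside 25.3% of all tested genes. The largest fall was that of IGFBP5, an insulin-like growth factor binding protein, from 102 ± 13.1 to 4.999 ± 1.13 CPM (log2 fold change -4.36, SE 0.16). THBS1, a matrix glycoprotein that binds plasminogen and activates latent TGF-β, fell from 4725 ± 336 to 764 ± 37.3 CPM (log2 fold change -2.63, SE 0.075), and both HGF (-1.79) and TGFB1 (-1.47), growth factors stored in latent form, fell as well on the log2 scale. Among those that rose, the collagenase gene MMP13 had 11, 5 and 10 counts in GM samples and 148, 175 and 560 in DM samples (log2 fold change 5.21, SE 0.58), with DM replicate 3 the highest and a log2 fold change of 4.40 without it. The fibrinogen gene FGB rose at very low counts (4, 2 and 2 against 17, 11 and 7), a call lost without DM replicate 1 (edgeR adjusted p = 0.0504). FN1, encoding fibronectin, had a log2 fold change of 1.97 (SE 0.092). Without DM replicate 3 the number of called genes in this list was 8 instead of 7, as the gelatinase gene MMP9 (365, 356 and 308 counts against 805, 933 and 165) went from a log2 fold change of 1.08, not called, to 1.54.

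From a list of 24 genes of clotting and its control, 18 were tested. Here 3 rose and 2 fell, with a median log2 fold change of 0.37. The called share of 27.8% was near the 25.3% of all tested genes. The endothelial protein C receptor gene PROCR rose from 2.84 ± 0.941 to 12.9 ± 5.09 CPM (log2 fold change 2.18, SE 0.29). Without DM replicate 3, its highest sample, the log2 fold change of PROCR was 1.82. The factor VIII gene F8 rose by 1.99 on the log2 scale and GAS6 by 1.45. F13A1, the fibrin-crosslinking enzyme subunit, and VWF fell by 2.20 and 1.41 on the log2 scale, both at levels near 1 CPM in GM samples, and without DM replicate 3 the log2 fold change of F13A1 was -3.07. Tissue factor (F3), the starter of clotting, was not called, at 9.95 ± 1.25 and 16.9 ± 1.26 CPM. Without DM replicate 3 the number of called clotting genes was 8 instead of 5, with F2, F2RL2 and PROS1 added.

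Across the families, 15 of 28 listed SERPIN genes were tested, and 4 rose and 3 fell, with 2 of these 7 calls being SERPINE2 and SERPINF1. With DESeq2, and also without DM replicate 3, 5 SERPIN genes were called in place of 7. SERPINB1, an intracellular inhibitor of neutrophil proteases, was called at a log2 fold change of 1.02 (SE 0.16) and lost its call with library size alone (0.92), without GM replicate 2 or 3 (both 0.99) and without DM replicate 3 (0.85). SERPING1, the inhibitor of the first complement proteases, rose from 7.89 ± 0.520 CPM to 79.0 ± 9.04 CPM (log2 fold change 3.32, SE 0.10, edgeR adjusted p = 3.02e-09). This was close in size to the rise of SERPINF1. SERPINA11 fell at low counts (38, 55 and 35 against 0, 0 and 11), and this call was lost with DESeq2 (adjusted p = 0.0822). Its log2 fold change was -3.34, and the fitted value of -8.34 without DM replicate 3 compares with DM samples at 0 counts and does not measure a size. Of 11 annexin genes, all tested, ANXA4 rose (log2 fold change 1.34) and ANXA3 fell (-1.72), and the median log2 fold change was -0.28. Of 12 tested S100 genes 3 rose and 1 fell, and S100A13 (log2 fold change 2.88) and S100A1 (5.06) rose, whereas S100A9 and S100A3 were called at 15 counts or fewer per sample and lost their calls in more than 1 setting. Called shares were 46.7% of tested SERPIN genes, 18.2% of annexin genes and 33.3% of S100 genes, beside 25.3% of all tested genes.

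Neighbouring genes on the chromosomes were compared with the set. Of 16 flanking genes, 11 were tested, and 2 were called higher and 2 lower, beside 25.3% of all tested genes called. Both genes called higher averaged 0 CPM in GM samples, with 0.283 and 0.102 CPM in DM samples. Of those called lower, 1 was near the floor as well, at 0.286 CPM in GM samples and 0.0931 CPM in DM samples. The remaining gene called lower was CADM4, 18927 bases before PLAUR. It went from 9.94 to 4.16 CPM (log2 fold change -1.25), the same direction as PLAUR. SERPINF2 lies 11611 bases before SERPINF1. S100A11, 29196 bases before S100A10, was not called with a log2 fold change of -0.93, of the opposite sign to S100A10.

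Over the 6 samples, among genes averaging 10 CPM or more, those whose log2 level was most like that of SERPINF1 were LRRC8E, STAT2 and PODN, with Pearson's r of 0.9998, 0.9998 and 0.9997. The samples form 2 groups, which sets much of such an r, and 481 of 8044 genes had an r above 0.99. PODN, a small leucine-rich proteoglycan, went from 0.974 ± 0.207 to 95.9 ± 13.8 CPM (log2 fold change 6.62), while LRRC8E and STAT2 had log2 fold changes of 1.21 and 1.02.

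Of the marker sums of other cell types, those of fibroblasts and epithelial cells did not overlap between GM and DM samples, and those of endothelial cells, macrophages and leukocytes, and adipocytes did. The summed level of 9 fibroblast markers, 7 of them called higher and led by the collagens COL1A1 and COL3A1, was 35370 to 36121 CPM in GM samples and 97711 to 123656 CPM in DM samples. The part of such cells in the differences of the set was not tested. For 11 muscle markers the sums were 3209 to 3787 and 5698 to 7633 CPM, but 4 were called higher, 2 were called lower and the list median was -0.15 on the log2 scale. Among them MYH3 (log2 fold change 2.58) and the actin gene ACTA1 (3.14) rose at high levels, whereas MYF5, a regulator of myoblasts, fell (-2.70) and the stem cell factor PAX7 was not called (-0.92). The 9 endothelial markers, highest for ERG and TEK, summed to 13.6 to 15.7 CPM in GM samples and 14.1 to 24.3 CPM in DM samples. Of the 8 tested, 1 was called higher and 3 lower. Of those called lower, TIE1 had 11 counts or fewer in each sample, and CDH5, at 32 or fewer, overlapped between the groups. This list had EMCN at or under 3 counts in every sample. For 8 macrophage and leukocyte markers the sums were 6.51 to 8.61 and 7.59 to 14.1 CPM, with CD14 and CD68 highest and PTPRC and CD3E at or under 3 counts. Of the 6 tested, CD14 was called higher (log2 fold change 2.75) and CD68 lower (-1.04). The 6 adipocyte markers summed to 6.75 to 8.10 and 7.19 to 8.65 CPM, with CIDEC and PPARG highest and LEP at or under 3 counts. Of the 5 tested, 2 were called higher and 1 lower. FABP4, called higher, had 16 counts or fewer in each sample. An overlapping sum therefore does not mean that no marker of a list changed, and 25.3% of all tested genes were called. Epithelial markers summed to 30.7 to 37.5 CPM in GM samples and 6.68 to 8.59 CPM in DM samples, nearly all of it CDH1, with KRT18 next, KRT5 and KRT14 at 0 and EPCAM at or under 3 counts. This sum thus follows the single gene CDH1, called lower (log2 fold change -2.17). KRT18, the only other tested marker, was called higher (3.89) at 9 counts or fewer per sample.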

How the data were processed

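RNA-seq of 3 GM and 3 DM samples was used. The raw counts per gene and per mRNA transcript were deposited by the authors, who filtered the reads and aligned them with HISAT2. The deposited RPKM values are scaled by the authors to the listed length and to the counts of the sample, without TMM. The submitters' processing notes name Bowtie 0.12.2 and mouse genome builds, the buffalo genome is named in the paper's methods, and the tables list cattle Ensembl identifiers with no build, so coordinates are as listed there. If reads were counted on another species' annotation, divergent genes may be undercounted. The counting tool and its strand setting are not given in the sources used here. No sequence was printed because no file used here holds one. The authors' lists of differential features hold their own log2 fold changes, p-values and q-values and were not used, nor was the ncRNA table.

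The glmQLFit and glmQLFTest functions of edgeR 4.0.16 (R 4.3.3) tested the counts, after TMM normalisation, on features with at least 10 counts over the 6 samples, with Benjamini-Hochberg adjustment over all tested features. SEs came from the F statistic, and intervals are at 95%. Levels are CPM on TMM-scaled libraries. Before this scaling the totals were 36657735 to 40305237 counts per GM sample and 35615864 to 38177614 per DM sample. The lowest count of a gene of the set in a sample was 1772. RPKM ratios were compared with two-sided exact permutation tests. Alternatives were DESeq2 1.42.0, other normalisations, filters and fold thresholds, a replicate block and each sample left out. On simulated data with 200 of 15576 genes changed 4-fold, 199 were recovered with 6 false calls. Summaries used scipy 1.17.1, numpy 2.4.6 and pandas 2.3.3 in Python 3.11.15.

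The genes of the set and all lists (plasminogen system, clotting, plasmin substrates, SERPIN, annexin and S100 families, and markers of muscle, fibroblast, endothelial, macrophage and leukocyte, adipocyte and epithelial cells) were chosen with earlier results of these data known. Named were all genes of the set, the 2 called genes with the largest rise and the 2 with the largest fall in each pathway or family list, the 2 most abundant genes of each marker list with any at 0, and the 3 genes most like the called gene with the largest change. LRP1, MRC2, PLGRKT, PLG, HGF, TGFB1, FN1, GAS6, F3, F2, F2RL2, PROS1, SERPINB1, MMP9, MYF5, PAX7, ACTA1, S100A13, S100A11, EMCN, PTPRC, CD3E, LEP and EPCAM were named after their values were seen. A gene of these lists is not reported here and is left out of their counts.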

Additional observations from a re-analysis of the deposited data

How the results depend on the processing

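PLAU, PLAUR, SERPINE2 and SERPINF1 were called in each setting tried, with DESeq2, library size alone, DESeq2 size factors, other filters, a test against a fold change of 2 and each sample left out. With a replicate block 4 of the 8 genes were called as well. Same-numbered GM and DM samples had correlations of -0.0076, -0.022 and -0.010 of their deviations from the group means. With 3 samples per group these values cannot settle whether the samples were paired, and the labels do not say. In 112 comparisons of a gene of the set with an alternative, direction and side of the threshold were kept. With no minimum fold change 7 of the 8 genes and 7 of their 8 transcripts passed instead of 4. The number of called genes overall was 3936, and became 2197 under the RPKM rule (at least 1 RPKM in more than 50% of samples, with fewer genes tested), 2293 in the test against a fold change of 2 and 9813 with no minimum fold change. Without DM replicate 3 the clotting list had 8 called genes in place of 5, and the cause was not tested. Each of the 8 genes had at least 1772 counts in every sample, while SERPINF2, FGB, S100A3 and S100A9 rest on few counts.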
